A study of Homo sapiens with 3 samples.

Results

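The 4635 pairs of neighbouring capture targets that face each other across more than 100 kb of untargeted autosomal sequence were taken from a design of 377858 targets. The study enriched RNA of K562 cells, a human leukaemia line, for intron ends in order to find branchpoints. Its 3 libraries are biological replicates of 1 untreated group, and a single list of targets belongs to all of them. Each library started from 5 µg of total RNA without its ribosomal RNA, with ERCC control RNA at 1% (replicates 1 and 2) or 1.08% (replicate 3). K562 is an established line grown in culture, while the targets were laid out on the human reference genome. The reads of the libraries were not analysed here, and no target has a value for a single library.

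Each pair was found by sorting the 363390 targets of chromosomes 1 to 22 by start and taking every gap longer than 100000 nt. Of 4653 such gaps, 18 that exceeded 2 Mb and held a centromere were left out. The 4635 gaps kept were 1.28% of all 363368 gaps between neighbouring autosomal targets. They were faced by 9013 targets (2.48%), of which 257 faced such a gap on both sides. The shortest gap kept was 100020 nt, on chromosome 4 from 117117994 to 117218013, with facing scores of 0 and 2. The longest gap left outside the limit was 99969 nt, on chromosome 6 from 81053288 to 81153256, with facing scores of 0 and 0. All coordinates are hg19 and 1-based.

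An intron is removed by a pair of cuts, and its 5′ end is joined to the branchpoint, a base near its 3′ end. The design therefore placed a target of 100 nt at each intron end and left exons out. A long empty stretch between targets can be the inside of a giant intron, whose ends lie far apart but are transcribed in 1 RNA, or the space between neighbouring genes, whose ends belong to different RNAs. Giant introns are known from genes of neuronal adhesion and signalling, and gene deserts are known from gene-poor chromosome arms. The deposited list names no genes and gives every target the plus strand, so the gaps were grouped by their layout and by their length.

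The layout uses the outward gap of a facing target, which is its distance to the next target on the side away from the long gap. Next to an exon this distance is an exon length. Outward gaps of at most 400 nt were called exon-sized. A gap with exon-sized outward gaps on both sides has the layout of 1 intron between inner exons. A short intron beside a long gap can also set its own end targets that close together. The layout alone therefore does not single out a giant intron. The length uses the distance from the start of the left target to the end of the right target, which for 1 intron is the length of that intron. This distance was compared with the lengths of introns over 100 kb in GENCODE release 29 on the same chromosome. That annotation lies on another build (GRCh38), so no position was compared or converted. A gap was given a gene name where an intron of a single gene had the same length within 1 nt.

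The exons on either side of 3 giant introns show what such a match rests on. The introns of HPSE2 and NRG3 were the longest named below whose flanking exons are both coding and both 1 nt shorter than the outward gaps. ZFAND3 was chosen after its values were seen, from the top 2 of 19 candidate introns ranked by smaller facing score. Those 19 were a selection: both flanking exons matched within 1 nt in 309 of the matched introns. The sequences were read 5′ to 3′ from the GENCODE release 29 transcripts, and capitals mark the 3 bases before the intron and the 2 bases after it.
HPSE2 exon 3 (162 nt, chromosome 10), before the intron: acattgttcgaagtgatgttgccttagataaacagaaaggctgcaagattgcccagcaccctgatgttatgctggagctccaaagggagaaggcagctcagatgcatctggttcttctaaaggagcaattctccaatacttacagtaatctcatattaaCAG
HPSE2 exon 4 (174 nt), after the intron: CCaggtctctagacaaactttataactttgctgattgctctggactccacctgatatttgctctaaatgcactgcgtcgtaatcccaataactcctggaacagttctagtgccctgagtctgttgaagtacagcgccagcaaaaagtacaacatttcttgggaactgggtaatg
NRG3 exon 2 (130 nt, chromosome 10), before the intron: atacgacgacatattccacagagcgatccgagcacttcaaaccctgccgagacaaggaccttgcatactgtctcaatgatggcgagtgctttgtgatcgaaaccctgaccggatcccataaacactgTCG
NRG3 exon 3 (74 nt), after the intron: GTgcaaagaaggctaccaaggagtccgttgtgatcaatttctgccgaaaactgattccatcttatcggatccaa
ZFAND3 exon 2 (41 nt, chromosome 6), before the intron: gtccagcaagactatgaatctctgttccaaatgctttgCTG
ZFAND3 exon 3 (183 nt), after the intron: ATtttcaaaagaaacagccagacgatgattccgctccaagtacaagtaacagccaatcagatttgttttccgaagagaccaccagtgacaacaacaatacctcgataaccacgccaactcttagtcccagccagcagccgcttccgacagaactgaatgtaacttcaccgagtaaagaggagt

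In the deposited list, the gap of NRG3 ran from 84118726 to 84498232 on chromosome 10 (379507 nt), with outward gaps of 131 nt on the left and 75 nt on the right. Those are the exon lengths of 130 and 74 nt plus 1 nt each. HPSE2, whose transcript runs right to left, had outward gaps of 175 nt on the left and 163 nt on the right. ZFAND3 had outward gaps of 42 and 184 nt.

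Long gaps made up a large part of the autosomes. Their summed length was 1132 Mb, or 40.5% of the 2794 Mb between the first and last targets of the chromosomes. The median gap was 165 kb, with quartiles of 125 and 262 kb. Of all gaps, 1910 (41.2%) were 100 to 150 kb long, 950 were 150 to 200 kb, 813 were 200 to 300 kb, 581 were 300 to 500 kb, 301 were 500 kb to 1 Mb and 80 (1.73%) were longer. Removing every gap over 2 Mb, centromeric or not, took out 10 more.

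Chromosomes differed in how much of their span lay in long gaps. Chromosome 13 had the largest share, 60.6% of its span in 176 gaps, followed by chromosome 18 with 58.6% in 125 gaps and chromosome 4 with 50.9% in 395 gaps. The smallest share was that of the gene-rich chromosome 19, 14.8% in 38 gaps, followed by chromosome 22 with 15.7% in 29 gaps and chromosome 17 with 25.3% in 93 gaps. The median gap length ran from 134 kb on chromosome 22 to 197 kb on chromosome 13.

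The 10 longest gaps all exceeded 2 Mb and lay on chromosomes 3, 6, 9, 13 and 18. The longest, 3.26 Mb on chromosome 13 from 81876431 to 85136599, had facing scores of 0 and 0. Next came 3.01 Mb on the same chromosome from 54701665 to 57715266 (0 and 0), 2.82 Mb on chromosome 18 from 25756926 to 28574338 (0 and 0) and 2.70 Mb on chromosome 9 from 28670197 to 31372197 (0 and 0). The highest facing score at any of the 10 was 1, at a gap of 2.69 Mb on chromosome 3 and a gap of 2.66 Mb on chromosome 6. None of the 10 had exon-sized outward gaps on both sides, and none matched an annotated intron in length.

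The layouts were unequal in number and in length. Exon-sized outward gaps stood on both sides of 500 gaps, on 1 side of 1446 and on neither side of 2689. The median gap was 143 kb with both sides exon-sized, 155 kb with 1 side and 184 kb with neither. Among outward gaps, 26.4% (2446 of 9270) were exon-sized, against 47.5% of all gaps between autosomal targets. The exon-sized ones had a median of 129 nt. Division by 3 left a remainder of 1 for 37.5% of the 2362 outward gaps between 30 and 400 nt long, and for 38.0% of all autosomal gaps of that length. With a limit of 1000 nt in place of 400 nt, 799 gaps had exon-sized outward gaps on both sides.

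**Figure D1:**
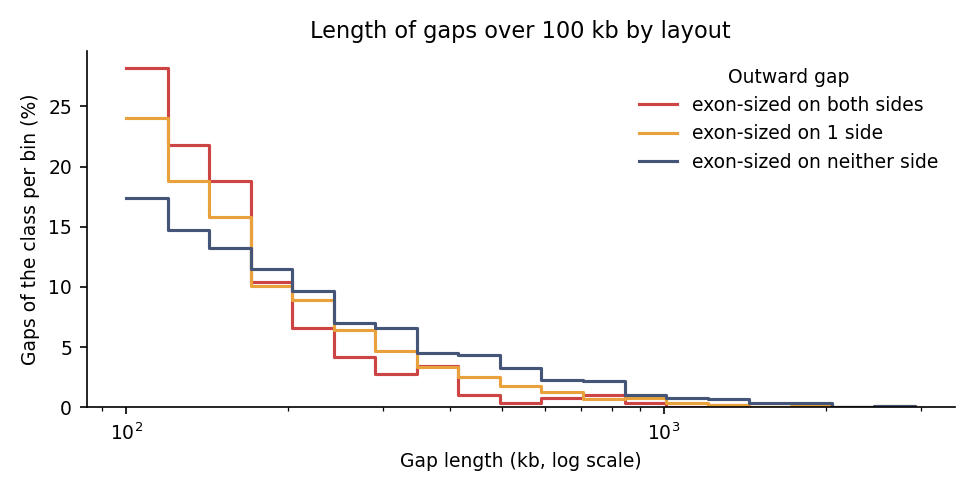
Lengths of the gaps over 100 kb in 3 layouts. The x axis is gap length in kb on a log scale and the y axis the percentage of the gaps of a layout in each of 20 bins; lines stand for gaps with an outward gap of at most 400 nt on both sides (500), 1 side (1446) or neither side (2689). The line for both sides is highest at the left, with a median of 143 kb, against 184 kb for neither side; the longest gap, 3.26 Mb, has 1 side exon-sized.

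A part of the gaps had the length of an annotated giant intron. At an offset of 1 nt, 649 gaps matched an intron of their chromosome, and 29 matched at 0 nt. At the 34 offsets of 4 to 20 nt in either direction, 4 to 15 gaps matched, with a median of 9.5, which gives about 28.5 chance matches over the 3 offsets accepted. In all, 671 gaps (14.5%) were given 1 gene name, 11 more matched introns of several genes, and 536 genes were named. The named introns belonged to protein-coding genes in 506 cases, to lincRNA genes in 130 and to antisense RNA genes in 22.

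**Figure D2:**
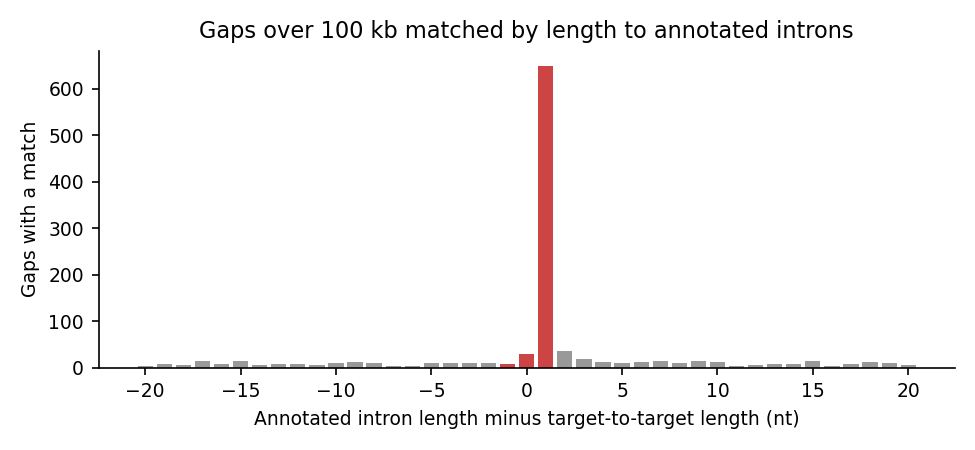
Number of gaps over 100 kb whose target-to-target length matches an annotated intron of the same chromosome, by offset. The x axis is the intron length minus the target-to-target length in nt and the y axis the number of gaps; red bars are the accepted offsets of -1 to 1 nt. The bar at 1 nt holds 649 gaps, and no bar more than 3 nt from 0 holds over 15.

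Several measures that the length match did not use bear on these names. At least 1 flanking exon also had the length of its outward gap less 1 nt, within 1 nt, for 619 of 671 (92.3%), and both did for 309. Along each chromosome, 653 matches (97.3%) followed the order of the introns in the annotation. All 18 that broke the order were among the 52 with no matching flanking exon, and none of the 619 did so. A gene name was given to 58.8% of gaps with exon-sized outward gaps on both sides, 21.7% with 1 side and 2.34% with neither. The matched share also fell with gap length, which the match itself used and which is therefore no check of the names. It was 21.7% for gaps of 100 to 150 kb, 3.96% for those of 300 to 500 kb and 0.52% for those over 500 kb.

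The longest matched gap was 741 kb on chromosome 13 from 96743925 to 97484643, named for HS6ST3, a heparan sulfate sulfotransferase, and both of its ends scored 0. That name rests on length and order alone, because neither outward gap was exon-sized. CNTNAP2, an adhesion protein of the neurexin family, followed with 657 kb on chromosome 7 from 145814167 to 146471262, where the 5′ end scored 6 and the 3′ end 0. Both ends scored 0 in the next 8, which measured 380 to 490 kb. These were introns of IQCJ-SCHIP1, of the Slit receptor gene ROBO1, of KCND2, a potassium channel gene, of the lincRNA AC007402.1, of the netrin receptor gene DCC, of the lincRNA AC068633.1, of HPSE2, a relative of heparanase, and of NRG3, which encodes a neuregulin. In these 10, 1 of 20 ends scored above 0, against 19.9% (267 of 1342) of the ends of all matched introns. The difference was not tested.

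Some gaps with the layout of an intron were longer than any match. The longest with exon-sized outward gaps on both sides was 1.23 Mb on chromosome 9 from 24545421 to 25780167, with outward gaps of 76 and 46 nt and facing scores of 0 and 0. The next were 976 kb on chromosome 13 from 22449848 to 23426332 and 907 kb on chromosome 2 from 146688319 to 147595380, also with 0 and 0. None of the 10 longest of this layout matched an intron of release 29. Both facing scores were 0 in 7 of them, near the 69.4% (347) of all 500 gaps of this layout. The design was laid over release 12, and changes between the releases were not tested.

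Each target carries a score, a whole number between 0 and 125. The sources used here do not say what it measures, so it was not read as a count. A fixed list has no replicate error: shares over it are a census, and spreads below are between chromosomes.

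Targets facing a long gap scored low. Over all autosomal targets, 53.0% scored above 0. Among the facing targets 24.3% (2189) did, against 53.8% of the other 354377. The mean score was 2.59 for facing targets and 6.90 for the others, and a score of 19 or more was reached by 3.53% of facing targets and 10.5% of the others. The 257 targets with a long gap on both sides scored above 0 in 17.9% of cases (46).

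**Figure D3:**
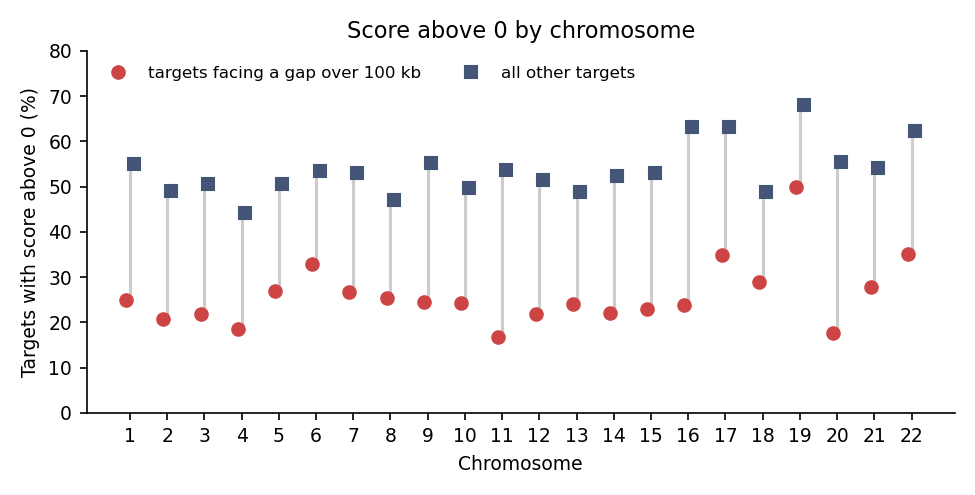
Percentage of targets with a score above 0 on each autosome. The x axis is the chromosome and the y axis the percentage; red circles are targets facing a gap over 100 kb, blue squares all other targets, and a grey line joins the values of a chromosome. The circle lies under the square on all 22 chromosomes; circle minus square is -18.1 percentage points on chromosome 19 and -39.2 on chromosome 16.

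The difference recurred on every autosome. Per chromosome, 26.03% ± 7.26 of facing targets and 53.7% ± 5.84 of other targets scored above 0 (SD between chromosomes, n = 22). The difference was -27.7 percentage points ± 5.48 (SD), negative on 22 of 22 chromosomes, and a two-sided sign-flip permutation test gave p = 1e-05, the lowest value that 100000 resamples allow (1.5e-05 after Benjamini-Hochberg adjustment over 3 tests). Facing targets scored above 0 least often on chromosome 11 (16.7%) and most often on chromosome 19 (50.0%). Chromosomes are large blocks and not replicates, so the p measures only whether the direction recurs.

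The low level was shared with the nearest other targets. Where the outward neighbour lay within 100 kb, 24.5% of facing targets scored above 0, and 25.2% of those 8756 outward neighbours did. The mean score there was 2.59 for facing targets and 2.53 for outward neighbours. No test was run on this pair of values.

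Scores on the opposite sides of a long gap agreed weakly. Both facing scores were above 0 at 429 gaps (9.26%), exactly 1 was above 0 at 1377 (29.7%) and neither was at 2829 (61.0%). Spearman's rho between the facing scores was 0.20 over 4635 gaps, a description across gaps that are not independent. It was above 0 on all 22 chromosomes, from 0.054 on chromosome 21 to 0.38 on chromosome 16. By length it was 0.25 for gaps of 100 to 150 kb, 0.18 for 150 to 200 kb, 0.16 for 200 to 300 kb, 0.086 for 300 to 500 kb and 0.13 for the 381 gaps over 500 kb.

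A facing target was more like its outward neighbour than like the target across the gap. Spearman's rho with the outward neighbour was 0.64 over 9270 neighbours. It was 0.66 where that neighbour was at most 400 nt away and 0.66 where it was farther than 400 nt but within 100 kb. It was 0.24 over the 514 outward neighbours that lay beyond another long gap. Per chromosome, rho was 0.18 ± 0.10 across the gap and 0.64 ± 0.05 with the outward neighbour (SD, n = 22). The difference was -0.45 ± 0.08 and negative on 22 of 22 chromosomes (two-sided sign-flip permutation p = 1e-05, adjusted 1.5e-05, again the lowest value possible).

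Agreement differed between layouts. Spearman's rho across the gap was 0.32 for the 500 gaps with exon-sized outward gaps on both sides, 0.27 for the 1446 with 1 side and 0.14 for the 2689 with neither. By length, rho with both sides and with neither was 0.36 and 0.18 at 100 to 150 kb, 0.30 and 0.12 at 150 to 200 kb, and 0.35 and 0.11 at 200 to 300 kb. At 300 to 500 kb the order was the other way, -0.12 over 36 gaps with both sides and 0.047 over 400 gaps with neither. None of those 36 had both scores above 0. With 11.1% of their targets above 0 and a product of the left and right shares of 1.16%, so few gaps cannot show a lack of agreement. Gaps with both sides exon-sized had an equal outcome (both scores above 0, or neither) in 78.4% of cases, against 67.0% of gaps with neither. The share of facing targets above 0 also differed, 19.8% against 25.5%, and a lower share by itself makes equal outcomes more frequent. Both scores were above 0 in 9.00% and 9.04% of these gaps, where the products of the left and right shares are 3.91% and 6.53%. On the 10 chromosomes with at least 20 gaps of each kind, rho was 0.33 ± 0.16 with both sides exon-sized and 0.12 ± 0.06 with neither (SD). The difference was 0.21 ± 0.18, positive on 8 of 10 chromosomes (two-sided sign-flip permutation p = 0.012, adjusted 0.012). With exon-sized extended to 1000 nt, the difference was 0.077 ± 0.23 over 17 chromosomes and no longer passed the test (permutation p = 0.19).

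Agreement was also higher in gaps that matched an annotated intron. In the 671 matched introns rho was 0.45, against 0.13 in the 2625 unmatched gaps with neither side exon-sized. It was 0.49 for the 506 matched introns of protein-coding genes and 0.28 for the 165 of other genes, a contrast that was not tested. Both ends scored above 0 in 71 matched introns (10.6%), where the product of the left and right shares above 0 is 3.96%. In the unmatched gaps with neither side exon-sized both did so in 8.88%, where that product is 6.55%. On the 14 chromosomes with at least 20 of each kind the difference in rho was 0.32 ± 0.21 and positive on 13 (permutation p = 0.00039). This comparison was added after the match had been seen. Of the ends of matched introns 19.9% scored above 0, against 25.6% of targets at those unmatched gaps, a contrast that was not tested.

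**Figure D4:**
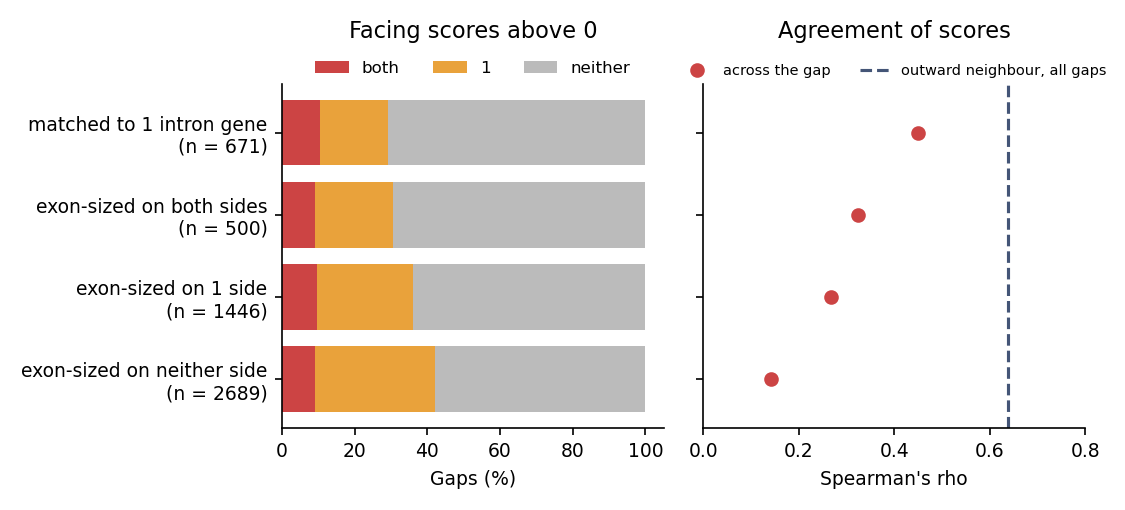
Facing scores in 4 classes of gaps; the matched introns overlap the 3 layouts. Left, stacked bars give the percentage of gaps in which both, 1 or neither of the facing scores is above 0. Right, points give Spearman's rho between the facing scores on the x axis, and the dashed line marks rho with the outward neighbour over all gaps. Spearman's rho is 0.45 for matched introns and 0.14 for gaps with neither side exon-sized, all left of the line at 0.64.

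The strand of the matched gene tells which target lies at the 5′ end of the intron and which at the 3′ end. The 5′ end scored above 0 in 140 of 671 introns (20.9%) and the 3′ end in 127 (18.9%). The 5′ end scored higher in 94 introns, the 3′ end in 92, and 485 were equal. The mean score was 1.07 at 5′ ends and 0.98 at 3′ ends. On the 18 chromosomes with at least 10 matched introns, the difference in the share above 0 was 1.23 percentage points ± 6.01 (SD), positive on 9 and negative on 6. It ran from -8.33 to 11.9 points, and a difference between the ends was not detected (two-sided sign-flip permutation p = 0.39, adjusted 0.39 over 4 tests). This comparison was also added after the match had been seen.

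**Figure D5:**
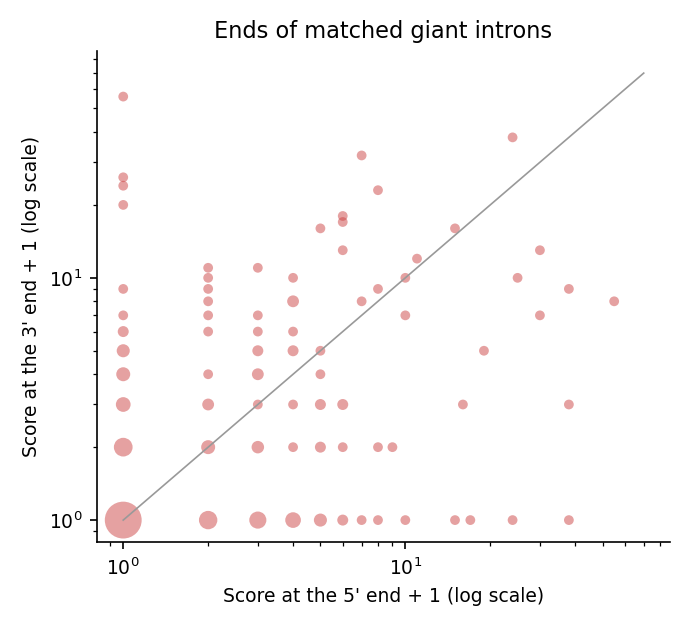
Scores at the ends of 671 matched giant introns. The x axis is the score at the 5′ end plus 1 and the y axis the score at the 3′ end plus 1, both on a log scale; the area of a point grows with the square root of the number of introns at that pair of values, and the line marks equal scores. The large point at the lower left holds the 475 introns with 0 at both ends, and points lie on both sides of the line.

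The 10 matched introns with the highest smaller score had 7 or more at both ends. STIM1, which encodes a calcium sensor of the endoplasmic reticulum, led with 23 at the 5′ end and 37 at the 3′ end of a 111 kb gap on chromosome 11 from 3877741 to 3988681. MYO1D, an unconventional myosin gene, had 14 and 15 across 110 kb on chromosome 17. The lincRNA LINC00534 had 29 and 12 across 105 kb on chromosome 8, and CHST11, a chondroitin sulfotransferase gene, had 10 and 11 across 144 kb on chromosome 12. The name CHST11 rests on length and order alone, as no flanking exon matched. SSBP2, which encodes a single-stranded DNA-binding protein, had 24 and 9, ZDHHC14, a palmitoyltransferase gene, 37 and 8, and ATG7, needed for autophagy, 7 and 8. FARS2, the mitochondrial phenylalanine tRNA ligase gene, had the largest difference between ends among these, 54 at the 5′ end and 7 at the 3′ end, and CMIP had 7 and 22. A gap on chromosome 2 also matched an intron of the lincRNA TEX41 (9 and 9), but it broke the order of the annotation and no flanking exon matched. In ZFAND3, a zinc finger gene, the 5′ end scored 6 and the 3′ end 31.

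Outside the matched introns, which were 671 of the 4635 gaps, agreement reached higher scores. The highest smaller score was 58, at a 160 kb gap on chromosome 17 from 55756910 to 55917296, whose other side scored 77. Next were chromosome 6 from 5004113 to 5109725 (49 and 68), chromosome 6 from 33422807 to 33541684 (55 and 42) and chromosome 16 from 15232736 to 15458618 (40 and 68). The gap at 33422807 had exon-sized outward gaps of 53 and 182 nt on its sides, and the other 3 did not have them on both. Of the 10 gaps with the highest smaller score, the intron of STIM1 was the only one with a gene name, near the share of 14.5% over all gaps. The 5 gaps with the largest difference had 0 on one side and 118 to 123 on the other. They lay on chromosome 3 from 107646720 to 107766139 (0 and 123), chromosome 7 from 127732045 to 127881360 (123 and 0), chromosome 8 from 61326114 to 61429813 (0 and 122), chromosome 16 from 18608089 to 18799283 (0 and 122) and chromosome 7 from 32338262 to 32528264 (0 and 118). None of these 5 matched an intron or had exon-sized outward gaps on both sides. Over all 4635 gaps, 671 were matched to 1 gene and 500 had that layout, so 5 gaps are too few to show a difference.

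Most ends of matched introns in the neuronal gene list scored 0. The list of neuronal adhesion, synapse and channel genes held 56, some of other kinds such as the splicing regulator gene RBFOX1. Of the 56, 40 had 77 matched introns, and both ends scored 0 in 63 of them (81.8%), against 70.8% of all matched introns. Of their 154 ends, 15 (9.74%) scored above 0, the highest being 6 in CNTNAP2. PTPRD, a receptor phosphatase gene, had the most matched introns of any gene, 6, all with 0 at both ends. CNTNAP2, LRRC4C, a netrin-G ligand gene, and RBFOX1, a splicing regulator gene, had 4 each, as had CTNNA3, an alpha-catenin gene outside the list. The highest score in LRRC4C was 4, at a 5′ end, and that in RBFOX1 was 2, at a 3′ end. The only listed intron with both ends above 0 was one of CNTN5, a contactin gene, with 1 and 1.

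Of 30 listed genes with broad expression, 13 had 22 matched introns; both ends scored above 0 in 6, exactly 1 end in 9 and neither in 7. Of their 44 ends 21 (47.7%) scored above 0, against 19.9% over all matched introns. The mean score was 0.91 at 5′ ends and 1.68 at 3′ ends, against 1.07 and 0.98 over all matched introns, and the highest score was 9. JARID2, a partner of Polycomb repressive complex 2, had 3 at the 5′ end and 9 at the 3′ end. Introns of MSI2, which encodes an RNA-binding protein, had 1 and 6 and 2 and 3. TRAPPC9, a gene of vesicle transport, had 3 and 4 in one intron and 0 and 4 in another. Of 20 listed blood and leukaemia genes, 3 had 1 matched intron each. The ends scored 2 and 3 in RUNX1, 0 and 6 in BACH2 and 0 and 0 in MECOM, all transcription factor genes. One match in the neuronal list (DPP10, with 0 and 2) and one in the broad list (RAD51B, with 0 and 0) broke the order of the annotation. Without them the shares of ends above 0 were 9.21% and 50.0%. The differences between lists, and between a list and all matched introns, were not tested.

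Targets are numbered along each chromosome, and 57 of the 4635 gaps had at least 1 number missing between their facing targets. Both facing scores were above 0 at 25 of these gaps (43.9%), against 8.82% of the 4578 gaps with no number missing. The product of the left and right shares above 0 was 46.8% at gaps with a missing number and 5.55% at the others, and Spearman's rho across the gap was -0.27 and 0.19. The mean score was 21.4 at gaps with a missing number and 2.37 at the others. Of these 57 gaps, 1 (1.75%) was among the matched introns, against 14.6% of the gaps with no number missing. That match, named for CDH8, broke the order of the annotation and had no matching flanking exon. The part of the missing numbers in the scores was not tested.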

How the data were processed

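The deposited list gives each target a chromosome, start, end, running number, plus strand and score. Per the labels' protocols, the authors targeted 100 nt at both ends of GENCODE 12 introns and removed exons and highly transcribed parts; the array maker left out repeats. The submitters' processing notes name hg19, Bowtie2, TopHat2 and bedtools. The deposited score is a whole number with no stated meaning; no count model was fitted, and read depth is not part of the list. Centromeres are the hg19 blocks of the UCSC gap track, entered by hand. Introns came from GENCODE 29 (GRCh38) and were matched by chromosome and length only. Differences between classes were tested over chromosomes with two-sided sign-flip permutation tests (100000 resamples). The code was checked on simulated data. Named regions are the longest gaps, those with the highest smaller score and those with the largest score difference, overall or among matched introns. The members, lists and tests were chosen with earlier results of these data known. The tools were Python 3.11.15 with pandas 2.3.3, numpy 2.4.6 and, for plots, matplotlib 3.10.9.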

Additional observations from a re-analysis of the deposited data

How the results depend on the processing

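The differences between facing and other targets and between agreement across the gap and with the outward neighbour remained negative, with permutation p under 0.05, in the 4 and 3 alternatives run for them. With gaps over 200 kb there were 1775 gaps of 738 Mb in all. With a limit of 1000 nt, 799 gaps had exon-sized outward gaps on both sides, and the difference in rho between layouts was 0.077 (permutation p = 0.19). It passed the test under the other 6 alternatives run. The same difference for gaps over 200 kb could not be computed, as too few chromosomes had 20 gaps of each kind. Exact length without the 1 nt offset matched 29 introns, and requiring both flanking exons matched 313. The 313 include gaps whose length alone matched several genes, and 309 are among the 671. The cause of these changes was not tested, except that a higher length limit leaves fewer gaps. The comparison of 5′ with 3′ ends missed the threshold in each of the 3 alternatives run. Alternatives using matched introns, gaps of 100 to 200 kb, the order of the annotation and 5′ against 3′ ends were added after the data were seen. No paired analysis was possible because the list has no column for any single library, and for that reason no replicate could be left out either.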
